A study of Homo sapiens with 8 samples.

Results

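The 4 EZH2 ChIP-seq peak lists of this myeloma study held 77 peaks inside WHSC1, the gene on chromosome 4p that encodes the histone methyltransferase MMSET (also named NSD2). The peaks were chosen by position, as those sharing a base with hg18 chromosome 4 from 1842000 to 1955000, a stretch of 113 kb that was itself picked from these lists because its many short, tall peaks had been seen there. They are 77 of the 19721 peaks in all 4 lists. Merged where they shared a base, they formed 20 regions out of 11858, and 18 of these 20 regions carried a peak in every list. An exon-like pattern of the peaks was named in the same choice. The counts, widths, heights, spacing and exon pattern of WHSC1 peaks are therefore described without a test.

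EZH2 is the catalytic subunit of Polycomb repressive complex 2, which trimethylates lysine 27 of histone H3 and in mammals is known for broad domains over CpG-rich promoters of silent genes. MMSET dimethylates lysine 36 of histone H3, a mark on which PRC2 works poorly. In t(4;14)+ myeloma the translocation joins the immunoglobulin heavy chain locus to WHSC1, so that immunoglobulin enhancers can drive this gene and the nearby FGFR3.

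The samples came from a pair of lines derived from KMS11, a t(4;14)+ human myeloma cell line. In NTKO cells, labelled as having high levels of MMSET, homologous recombination had inactivated the wild-type allele and left the rearranged IGH-MMSET allele. In TKO cells, labelled as having low levels of MMSET, the rearranged allele had been inactivated and 1 wild-type copy was left. WHSC1 is thus the gene that had been edited in both lines, and each line stands for a single engineered derivative. EZH2 was precipitated in a first and a second run from each line, which gave the samples NTKO1, NTKO2, TKO1 and TKO2 (the digit is the run, and figures spell it out), and 4 input samples served the authors as controls for calling peaks. The labels name no treatment. Peak lists hold no expression values, so the labelled MMSET levels were not checked here. The lists held 2972 peaks in NTKO1, 10582 in NTKO2, 651 in TKO1 and 5516 in TKO2. The depth of the libraries is unknown from the lists, and no scaling of peak heights to library size is stated, so a higher peak can come from more reads as well as from more EZH2.

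WHSC1 held 19 peaks in NTKO1, 20 in NTKO2, 18 in TKO1 and 20 in TKO2. The number hardly varied, although the whole lists ran from 651 to 10582 peaks. As a share of the list, WHSC1 made up 0.639% of peaks in NTKO1, 0.189% in NTKO2, 2.76% in TKO1 and 0.363% in TKO2. Every peak of the lists passes the calling threshold of a −log10 p of 15 by construction. The weakest WHSC1 peak had a −log10 p of 24.5, in TKO1, and the strongest 132, in NTKO2.

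The places of the peaks followed the coding exons of the gene. The MANE Select transcript of NSD2 in the GENCODE annotation of GRCh37 (ENST00000508803) has 22 exons, of which 21 hold coding sequence, 4095 bases or 1365 codons in all. Coding exons 14 and 15 lie close together and were treated as 1 block, which gave 20 blocks (the length of this block includes the short intron inside it). Because the peaks are in hg18 and the exons in GRCh37, no position was carried from one build to the other. Distances between exon blocks were compared with distances between peak midpoints instead. With a tolerance of 100 bases, 20 of 20 blocks met a peak in NTKO2 and in TKO2, 19 in NTKO1 and 18 in TKO1. No WHSC1 peak in any list was left without a block. The distance from one peak to the next differed from the distance between the matching blocks by a median of 4 bases in NTKO1, 11 in NTKO2, 10.5 in TKO1 and 11 in TKO2, over block distances that ran from 413.5 to 13840.5 bases. The largest of these differences was 89 bases, in NTKO2.

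**Figure D1:**
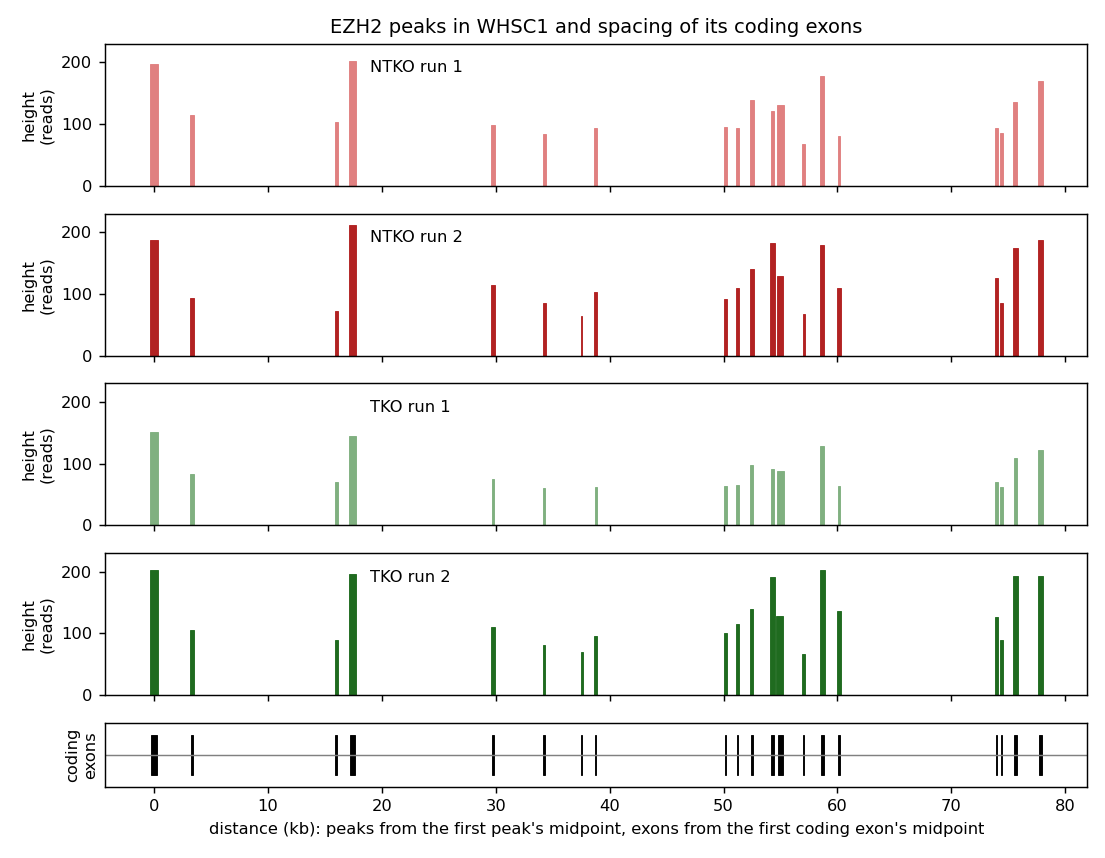
Summit height in reads (y axis) of each WHSC1 peak in the 4 lists against distance in kb (x axis), measured from the midpoint of the first peak for the peaks and from the midpoint of the first coding exon for the exons in the bottom track. Bars are drawn at the width of the peaks, and the 18 to 20 peaks of each list stand at the spacing of the 20 coding blocks, with no peak between them.

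The exons that set the lists apart were the shortest ones. Exon 8, the shortest coding exon with 82 bases, had a peak in both run 2 lists and in neither run 1 list. Exon 16, with 104 bases, had a peak in all lists but TKO1. Exon 20, with 107 bases, was the shortest exon with a peak in all 4 lists. These exons are printed below because they bracket the length at which peaks were still found. The sequences are those of the GENCODE transcript, 5′ to 3′ on the plus strand, and lie on GRCh37 chromosome 4 from 1940178 to 1940259 (exon 8), from 1959660 to 1959763 (exon 16) and from 1977021 to 1977127 (exon 20). Capitals mark CpG dinucleotides.
exon 8: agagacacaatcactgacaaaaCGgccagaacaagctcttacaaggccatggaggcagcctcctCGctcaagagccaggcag
exon 16: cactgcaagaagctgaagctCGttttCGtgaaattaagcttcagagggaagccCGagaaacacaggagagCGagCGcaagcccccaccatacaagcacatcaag
exon 20: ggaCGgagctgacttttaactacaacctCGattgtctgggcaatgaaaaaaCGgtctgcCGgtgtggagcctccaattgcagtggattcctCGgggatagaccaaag

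Exon 8 holds 2 CpG dinucleotides, exon 16 holds 5 and exon 20 holds 5. Their GC content was 54.9%, 51.9% and 51.4%. The whole coding sequence had a GC content of 52.5% and 137 CpG dinucleotides, or 3.35 per 100 bases. The GC content of single blocks ran from 44.8% (exon 9) to 64.5% (exon 11), and both of these exons had a peak in all 4 lists.

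Noncoding exon 1 and the noncoding part of exon 22 carried no peak of their own. Exon 1, with 150 bases, lies 29.5 kb before the first coding block, and in every list the peak nearest to its place was the peak of exon 2, at a distance of 29.5 kb. The last exon, exon 22, is 3555 bases long, of which 269 are coding. Its peak was 391 bases wide in NTKO1, 437 in NTKO2, 362 in TKO1 and 449 in TKO2, and its midpoint followed the coding part. The remaining 3286 bases of exon 22 held no other peak, and the nearest peak midpoint to their centre was 1.76 to 1.79 kb away. Introns held no peak of their own. In total WHSC1 peaks covered between 5921 bases (TKO1) and 7220 bases (TKO2), against 4095 coding bases. The peaks thus took up 5.24% to 6.39% of the 113 kb. Coding bases make up 5.23% of a shorter stretch, the 78.3 kb from the first to the last coding base, so these percentages are not on the same base. Sequencing reads were not analysed here, so whether reads under these peaks cross exon junctions is not known, and neither is the read level of the inputs at these exons.

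The width of each peak followed the length of its exon. In NTKO1 the peaks were a median of 142 bases wider than their block, with a range of 107 to 159. In NTKO2 the median was 154 bases (18 to 199), in TKO1 it was 103.5 (69 to 155) and in TKO2 it was 157 (70 to 208). Every peak was thus wider than its block, and by less than 210 bases. Across the matched blocks of a list, Pearson's r between block length and peak width was 0.996 in NTKO1 (n = 19), 0.947 in NTKO2 (n = 20), 0.986 in TKO1 (n = 18) and 0.962 in TKO2 (n = 20). The widest peak in every list was that of exon 2, which holds the start codon and 597 coding bases, with 751 bases in NTKO1, 748 in NTKO2, 697 in TKO1 and 770 in TKO2. The narrowest was the 100-base peak of exon 8 in NTKO2. These correlations run across the exons of 1 gene in 1 library and are given as a description.

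**Figure D2:**
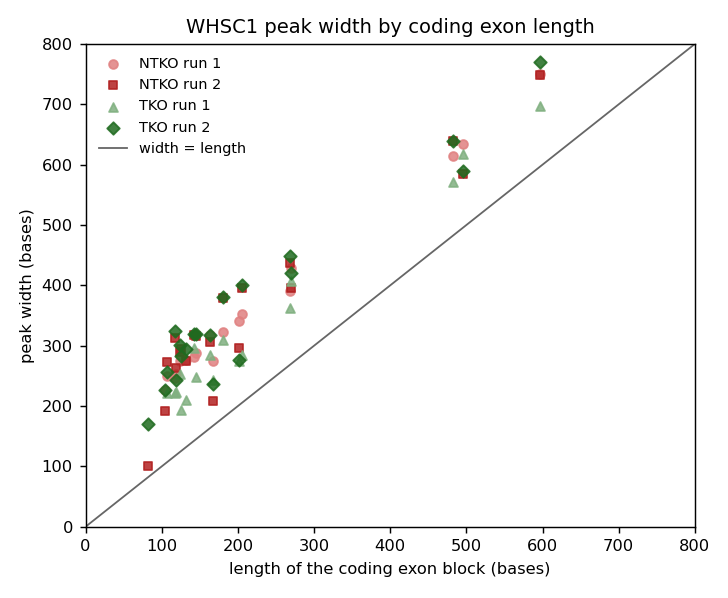
Width of each WHSC1 peak (y axis, bases) against the length of its coding exon block (x axis, bases), with 1 symbol for each peak and 1 colour for each of the 4 lists. All points lie above the line of equal width and length, and the widest peaks, at 697 to 770 bases, are those of exon 2.

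Longer exons also had taller peaks. Pearson's r between block length and summit height was 0.828 in NTKO1, 0.681 in NTKO2, 0.805 in TKO1 and 0.641 in TKO2, and Spearman's rho was 0.956, 0.834, 0.925 and 0.817. The region of exon 2, on hg18 chromosome 4 from 1872097 to 1872867, had a height of 198 reads in NTKO1, 187 in NTKO2, 152 in TKO1 and 202 in TKO2. The region of exon 5, another long exon with 483 bases, lies from 1889581 to 1890222 and had 203, 212, 145 and 197 reads in the same order. TKO1 was the lowest sample in both, and the other samples lay close together.

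Some exons stood above others of like length in run 2. The region of exon 13, with 180 coding bases, lies from 1926586 to 1926969 and had 121 reads in NTKO1, 183 in NTKO2, 92 in TKO1 and 191 in TKO2. The region of exon 18, with 117 bases, lies from 1932456 to 1932780 and had 81, 109, 63 and 136 reads. Both run 2 samples were above both run 1 samples at these exons. Of the 18 regions found in every list, 5 were lower in NTKO2 than in NTKO1. Among them exon 4, with 167 bases, fell the most. Its region, from 1888348 to 1888629, had 103 reads in NTKO1 and 72 in NTKO2, against 71 in TKO1 and 89 in TKO2.

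Toward the end of the gene, long exons again had tall peaks. Exon 17, with 270 bases, had 178 reads in NTKO1, 180 in NTKO2, 128 in TKO1 and 203 in TKO2 (1930909 to 1931349). The coding part of exon 22 had 170, 187, 122 and 193 reads (1950064 to 1950512). Exon 16, which had no peak in TKO1, had 67 reads in each of the other samples (1929396 to 1929656), and exon 8 had 64 reads in NTKO2 and 70 in TKO2 (1909959 to 1910144). Among exons of middle length, exon 12 (201 bases) had 139 reads in NTKO1, 141 in NTKO2, 98 in TKO1 and 139 in TKO2 (1924778 to 1925118). Exons 14 and 15, which share a region from 1927127 to 1927780, had 131, 129, 88 and 128 reads. Apart from TKO1, the samples were within 3 reads of each other at both places. Exon 21 (205 bases) had 136, 174, 109 and 193 reads (1947905 to 1948310), with both run 2 samples on top, and exon 19 (142 bases) had 93, 126, 70 and 127 reads (1946296 to 1946618) in the same order of samples. The short exons 7 and 20 had 84, 85, 61 and 81 reads (1906594 to 1906856) and 85, 85, 62 and 89 reads (1946746 to 1947018), so that only TKO1 stood apart. Exons 3, 6, 9, 10 and 11 fell between 62 and 116 reads in all samples.

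Over all WHSC1 peaks of a list, the height ran from 67 to 203 reads in NTKO1 (median 103), from 64 to 212 in NTKO2 (median 112), from 61 to 152 in TKO1 (median 79) and from 67 to 203 in TKO2 (median 121.5). The lowest peaks of all lists except TKO1 belonged to exons 8 and 16.

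**Figure D3:**
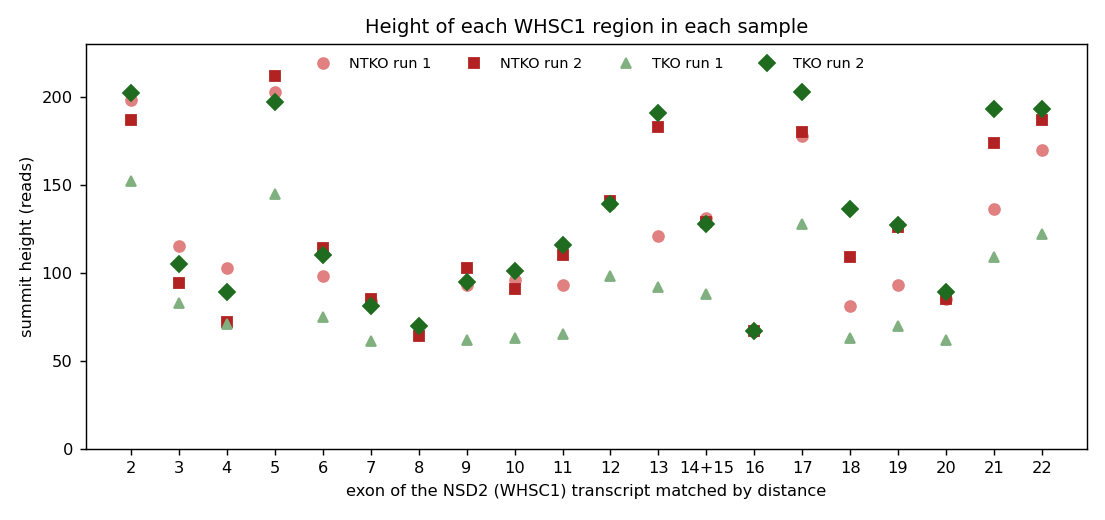
Summit height in reads (y axis) of each of the 20 WHSC1 regions, ordered along the gene by the exon it matched (x axis), with 1 symbol for each sample. TKO1 is the lowest sample at all 18 regions found in every list, and the regions of exons 2, 5, 17 and 22 are among the tallest.

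The heights rose and fell along the gene in nearly the same order in both lines. Over the 18 regions found in every list, Pearson's r of log2 heights was 0.984 between NTKO and TKO in run 1 and 0.965 in run 2. Between the runs of a single line it was 0.833 for NTKO and 0.875 for TKO. Over the other 308 regions found in every list, r was 0.662 between the lines in run 1, 0.745 in run 2, 0.709 between the NTKO runs and 0.449 between the TKO runs. The WHSC1 regions share 1 gene and span very different exon lengths, so these values describe the gene and carry no p.

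The MMSET-high and MMSET-low lines were compared by peak height, and whether heights at these exons measure EZH2 binding was not tested. In run 1 the height was greater in NTKO cells at 18 of 18 WHSC1 regions, with a median log2 ratio of NTKO to TKO of 0.47 (range 0.32 to 0.61). In run 2 it was greater in NTKO cells at 6 and lower at 12 of the 18, with a median of -0.06 (range -0.32 to 0.12). The direction thus differed between the runs, and the mean of both runs had a median of 0.21. TKO1 decided the sign: without it the median was -0.07. For the other 308 regions the median log2 ratio was 0.93 in run 1, 0.16 in run 2 and 0.57 over both. In both runs the WHSC1 median was lower than that of the other regions, a difference that was not tested. With heights centred on each sample's median over the 326 regions, the WHSC1 median became -0.44.

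Limma, fitted over all 326 regions found in every list, called 0 regions at a Benjamini-Hochberg adjusted p under 0.05, that is 0% of those tested, and 0 of the 18 in WHSC1. The number at an unadjusted p under 0.05 was 0 as well. The call depended on the setting: with the run as a block and heights centred on each sample's median, limma called 47 of the 326 regions (14.4%), among them 3 of the 18 in WHSC1, all lower in NTKO cells, and 16 of the 18 had an unadjusted p under 0.05. The largest WHSC1 difference was at exon 9, with a log2 NTKO minus TKO of 0.35 (SE 0.84, limma adjusted p = 0.951), and the smallest was at exon 18, with 0.02 (SE 0.84, limma adjusted p = 0.989). The SE without a block was the same at all 18 WHSC1 regions, because limma gave them a variance shared over the 326 regions. It does not measure the spread at these exons, so 0 of 18 called says little about WHSC1 itself. Both NTKO samples were above both TKO samples at 3 of the 18 WHSC1 regions, against 12% of the 326 regions, and both NTKO samples were below both TKO samples at 0 of the 18, against 0.307%. With 18 regions, these counts are near the shares of all regions. With 2 samples in each line, no exact permutation test can give a p below 0.333 for a single region.

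In heights as deposited, the runs of a line also lay closer together at WHSC1 than elsewhere. Over the 18 WHSC1 regions the median log2 ratio of run 2 to run 1 was 0.04 for NTKO (range -0.52 to 0.60), a 1.03-fold change, while for TKO it was 0.58 (range 0.33 to 1.11). Over the other 308 regions the median was 0.65 in the NTKO line, a 1.57-fold rise, and the TKO line rose 2.83-fold. From the highest to the lowest of the 4 samples, the median log2 difference was 0.63 for WHSC1, a 1.55-fold range, and 1.73 for the other regions, a 3.32-fold range. With heights centred on each sample's median over the regions found in every list, the WHSC1 median became -0.70 for NTKO and -0.98 for TKO. The closeness of the runs at WHSC1 thus depends on the scale of the heights, and library depth is unknown. These values are given as a description, since the stretch was picked from the same lists.

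**Figure D4:**
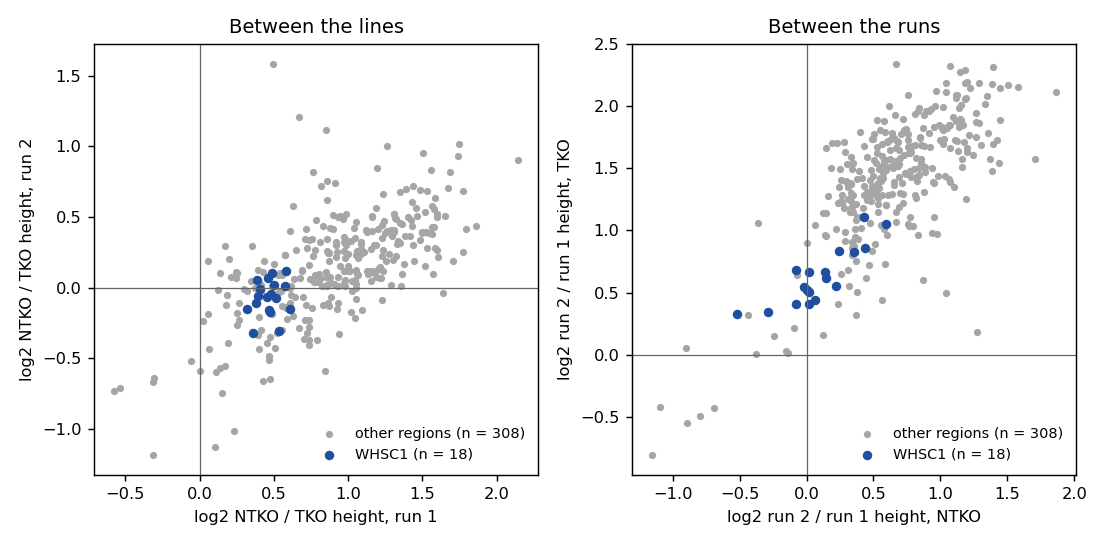
Log2 height ratios of the 326 regions with a peak in all 4 lists, with 1 point for each region. Left, NTKO over TKO in run 2 (y axis) against run 1 (x axis). Right, run 2 over run 1 in TKO cells (y axis) against NTKO cells (x axis). The 18 WHSC1 regions lie together, with a median of 0.47 and -0.06 on the left and of 0.04 and 0.58 on the right. They lie nearer to 0 on these axes than most of the other 308, in heights as deposited and not centred.

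Compared with all other peaks of the same list, WHSC1 peaks were tall and of even width. The median height of the other peaks was 52 reads in NTKO1, 63 in NTKO2, 44 in TKO1 and 65 in TKO2, and the median WHSC1 height was above 93.7%, 90.0%, 94.0% and 92.7% of them. In TKO1, the shortest list, 17 of the 18 WHSC1 peaks were among the 100 tallest, with a best rank of 9. In NTKO2 only 1 of 20 was among the 100 tallest. The median −log10 p of WHSC1 peaks was 49.0 in NTKO1, 54.8 in NTKO2, 39.6 in TKO1 and 56.2 in TKO2, against 19.6, 21.7, 18.5 and 22.1 for the other peaks. The median width was not unusual, at 288 bases for WHSC1 and 345 for the rest in NTKO1, 309 and 377 in NTKO2, 279.5 and 275 in TKO1, and 318.5 and 352 in TKO2. The range was. No WHSC1 peak was wider than 1000 bases, against 20.3%, 18.7%, 10.7% and 15.8% of the other peaks. Between 65% and 78.9% of WHSC1 peaks were 200 to 400 bases wide, limits set after the values were seen, against at most 28.6% of the others.

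WHSC1 was also dense in recurrent regions. Neighbouring WHSC1 summits lay a median of 1828.5 bases apart in NTKO1, 1763 in NTKO2, 2204 in TKO1 and 1829 in TKO2, while the median distance between other neighbouring peaks was 4069, 2111.5, 70419.5 and 2554.5 bases. The spacing in WHSC1 was thus much the same in the shortest and the longest list. Of its peaks, 94.7% in NTKO1, 90% in NTKO2, 100% in TKO1 and 90% in TKO2 lay in regions found in all 4 lists, against 17.9%, 3.44%, 74.1% and 10.1% of the other peaks. When the genome was divided into windows of the same length, 2698 of them held a region and 241 held a region found in every list. The highest number of such regions in 1 window outside WHSC1 was 6, on chromosome 12 from 52658467 to 52771467. The next were 5 on chromosome 16 from 83846743 to 83959743 and 5 on chromosome 20 from 61472545 to 61585545. Counted as single peaks, WHSC1 was not the densest of these stretches in any list. The windows on chromosomes 12, 16 and 20 held 20, 61 and 48 peaks in NTKO2, against 20 in WHSC1. They held 23, 68 and 47 in TKO2, against 20. The counts were 12, 40 and 23 in NTKO1, against 19, and 24, 6 and 10 in TKO1, against 18. Merging joins separate peaks of a list where a wide peak of another list spans them, which lowers the number of regions. In NTKO2 the widest peaks in these windows were 19119, 12199 and 8942 bases, against 748 in WHSC1. Median widths in the windows were 733.5, 729 and 768 bases in NTKO2 and 936, 464.5 and 917 bases in TKO2. In the run 1 lists the windows differed less from WHSC1 in median width. In NTKO1 the medians were 929, 344.5 and 342 bases, against 288 in WHSC1, with widest peaks of 23768, 2837 and 4397 bases, against 751. In TKO1 the medians were 358, 147 and 372 bases, against 279.5 in WHSC1, and the 6 peaks of the chromosome 16 window, 120 to 402 bases wide, were narrower than those of WHSC1 by their median. In the other lists and windows the widest peak exceeded that of WHSC1.

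**Figure D5:**
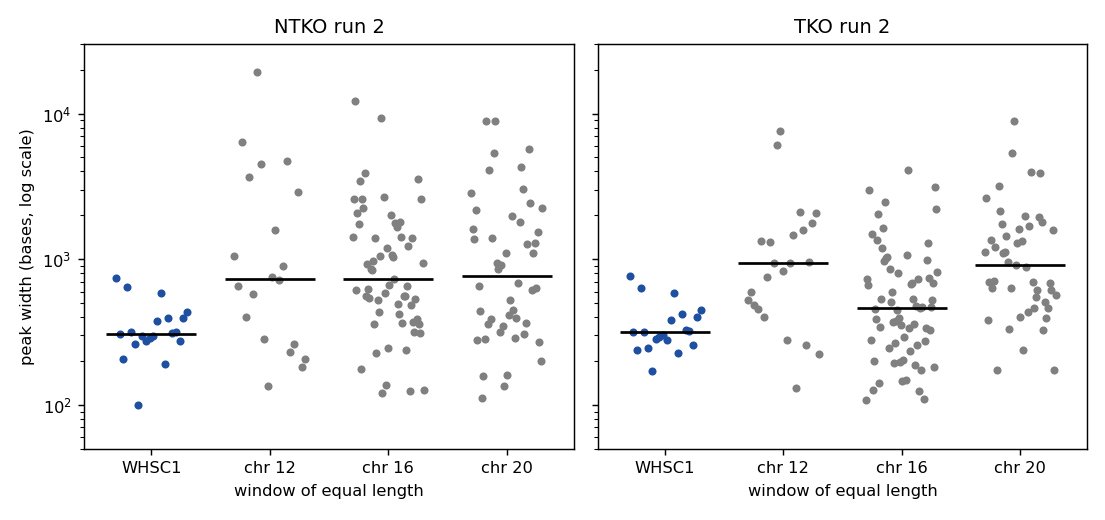
Width of each peak (y axis, bases, log scale) in WHSC1 and in the 3 windows of equal length with the most regions found in every list, in NTKO2 (left) and TKO2 (right). Each point is a peak in order along the window and the line is the median. WHSC1 peaks stay below 1000 bases, while the windows on chromosomes 12, 16 and 20 hold wider ones, up to 19119 bases.

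The spacing of coding blocks was compared with the peaks in the same way for every gene whose MANE Select transcript had at least 10 coding blocks, 6190 genes in 3 of the lists and 6078 in TKO1, with peaks anywhere on the chromosome allowed. NSD2 reached 95% of its blocks in NTKO1, 100% in NTKO2, 90% in TKO1 and 100% in TKO2. The next gene reached 70%, 81.8%, 60% and 80%, each time with 10 or 11 blocks. The median gene reached 25%, 40%, 16.7% and 30.8%. The median was higher in the longer lists, and in NTKO2 there were 1641 other genes with at least 50% of their blocks matched. In TKO1 there were 18. Because any peaks on the chromosome could match, the share of another gene need not come from peaks at that gene. The exon-like pattern of WHSC1 was known before this comparison, so the lead of NSD2 is given as a description.

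FGFR3, which encodes a receptor tyrosine kinase for fibroblast growth factors and lies before WHSC1 on the chromosome, had peaks that came and went between the lists. On hg18 chromosome 4 from 1764800 to 1780400 there were 2 peaks in NTKO1, 5 in NTKO2, 0 in TKO1 and 3 in TKO2, and no region was found in all 4 lists. The FGFR3 window is much shorter than that of WHSC1, 15.6 kb against 113 kb. Per 10 kb it held 1.28 peaks in NTKO1, 3.20 in NTKO2, 0 in TKO1 and 1.92 in TKO2, against 1.68, 1.77, 1.59 and 1.77 in WHSC1, so that FGFR3 was the denser of the pair in both run 2 lists. The median FGFR3 height was 50 reads in NTKO1, 72 in NTKO2 and 50 in TKO2, below the WHSC1 median in each list, and in NTKO2 above the median of 63 reads for the other peaks. The region nearest the beginning of the window, from 1765417 to 1766224, had a height of 46 reads in NTKO1, 89 in NTKO2 and 57 in TKO2. The region from 1771789 to 1774113 had 81 reads in NTKO2 and 50 in TKO2. The region from 1766545 to 1766816 had 54 reads in NTKO1 and 49 in NTKO2, and the others, from 1767064 to 1767564 and from 1770772 to 1771684, were found in NTKO2 alone with 72 and 49 reads. The −log10 p of FGFR3 peaks ran from 16.4 to 34.2, and 3 of the NTKO2 peaks lay above the weakest WHSC1 peak. Their widths ran from 136 to 2325 bases. The number of FGFR3 peaks ran from 0 to 5 over the lists and that of WHSC1 peaks from 18 to 20.

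Between FGFR3 and WHSC1 the chromosome was free of peaks. The last peak before the exon 2 peak ended 105 kb away in NTKO1, 98.0 kb in NTKO2 and 98.8 kb in TKO2, and TKO1 had no peak before it on chromosome 4. The next peak after the exon 22 peak began 439 kb away in NTKO1, 30.5 kb in NTKO2 and 439 kb in TKO2. In TKO1 it was 76.1 Mb away, so that its 18 WHSC1 peaks stood alone at that end of the chromosome.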

How the data were processed

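EZH2 ChIP-seq of NTKO and TKO cells, 2 samples each, was analysed from the peak lists. Per the labels, CASAVA 1.8 and BWA were used with hg18. The authors discarded duplicate reads by position and ran ChIPseeqer on each sample with its matching input, keeping peaks of at least 2-fold enrichment whose −log10 p reached 15. The deposited signal columns give the reads at a peak's summit (its height) and the mean read level over the peak, with no stated scaling. The deposited score column is a log10 p-value, and the deposited percent column, not used, places the summit within the peak. Starts were taken as counted from 0 and are printed counted from 1. The authors describe the 2 samples of a line as biological replicates.

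The stretch and all comparisons were chosen with earlier results of these data known. By rule, regions of the stretch found in all 4 lists, up to 3 others of it, all FGFR3 regions, and the 3 windows with most recurrent regions could be named. Peaks sharing a base were merged with Python 3.11.15 and pandas 2.3.3. Log2 heights of the regions shared by all lists went into limma 3.58.1 (R 4.3.3), two-sided and without a block. Coding exons up to 200 bases apart were joined, a limit chosen after the peaks were seen, and compared with peaks by distances only, with a tolerance of 100 bases. Merging, matching and limma were tested on simulated data. No hg18 sequence or annotation was used here. Alternatives were a −log10 p of at least 20, merging peaks within 100 bases, the mean read level, tolerances of 50 and 200 bases, a reciprocal overlap of 50%, centring, the run number as a block, and leaving out each replicate.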

Additional observations from a re-analysis of the deposited data

How the results depend on the processing

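Across 29 results, 73 alternatives were run, and 64 left the value within its limits (1.5 times for counts, 1 SD between the runs for other values). The number of WHSC1 peaks, their widths and spacing, the 18 regions found in every list and the exon blocks matched stayed within them. This held under every alternative run on these results, but most could not have moved them. The weakest WHSC1 peak had a −log10 p of 24.5, so a threshold of 20 removed none. No neighbouring WHSC1 peaks of a list lay within 100 bases, so merging joined none. No WHSC1 peak was unmatched, so a wider tolerance could add no match. Only the narrower tolerance and the reciprocal overlap could have changed a count, and neither did. Alternatives without a possible effect are among the 64. The mean read level in place of the summit height gave a median of 72.0 reads in NTKO1, 69.8 in NTKO2 and 70.8 in TKO2. With a −log10 p of at least 20, FGFR3 kept 1 peak in NTKO1 and 1 in TKO2. Centring on each sample's median over the regions found in every list moved the median WHSC1 log2 ratio between the lines from 0.21 to -0.44. The median WHSC1 log2 ratio of run 2 to run 1 moved to -0.70 in NTKO cells and to -0.98 in TKO cells. Centring subtracts each sample's median, and these medians differed more between the lines and between the runs than WHSC1 heights did. Leaving out each replicate gave a median log2 ratio between the lines from -0.07 to 0.52. The limit for this ratio was an SD of 0.38 between the runs, wider than the ratio of 0.21 itself. The value of -0.07, without TKO1, thus counted as within the limit although its sign had changed.

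When the run entered as a replicate block, the median log2 ratio was 0.21 and limma called 0 regions. The block together with centring gave 47 of 326 regions (14.4%), 8 higher and 39 lower in NTKO cells, of which 3 lower ones lie in WHSC1 (exons 4, 18 and 21). Deviations from the line means correlated between samples of the same run (r = 0.759 over 326 regions), but the labels do not say that a run number marks a shared batch, and with 2 pairs this is only a hint. Unknown library depth limits every comparison of heights.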
